A study of Mus musculus with 7 samples.

Results

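Proteasome genes were taken from the array annotation as every gene whose symbol begins with Psma, Psmb, Psmc, Psmd, Psme, Psmf or Psmg followed by a number, with pseudogenes left out. The rule gave 49 of the 18193 genes with a probe set of their own, and each was read from the brightest probe set that names it alone. A gene was tested where the mean of at least 1 group reached 5 on the log2 scale, which held for 47 of the 49 genes and for 11460 genes in all. Psme2, the partner of Psme1 in the interferon-inducible activator, is named only on a probe set shared with Psme2b and has no value here. Psma8 (3.16 to 4.25 over the 7 arrays, log2) and Psmb11 (3.62 to 4.42) stayed under the filter in every group. Psma8 is known from the testis and Psmb11 from the cortex of the thymus. Psmc3ip and Psme3ip1 match the rule by name but are not subunits: the first is a recombination protein named for binding Psmc3 and the second binds the activator subunit Psme3.

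The proteasome degrades proteins that carry ubiquitin chains. Its core is a barrel of alpha rings, which gate the entry, around beta rings, which hold the proteolytic sites of Psmb5, Psmb6 and Psmb7. A regulatory particle on the barrel binds ubiquitin, unfolds the substrate with the ATPases of its base and removes the chain with its lid. Interferon-gamma induces Psmb8, Psmb9 and Psmb10, which take the places of Psmb5, Psmb6 and Psmb7 and form the immunoproteasome, and Psme1 and Psme2, whose ring opens the barrel. Lymphocytes carry much immunoproteasome, and its products feed presentation on MHC class I.

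The 7 Affymetrix mouse arrays measured CD4+ T cells that were taken from peripheral lymph nodes, and every donor mouse was male and 3 weeks old. The C57BL/6 wild type (B6) is a single array of RNA pooled from 2 mice. Scurfy mice (Sf, strain B6.Cg-Foxp3sf/J), whose mutated Foxp3 leaves them without working regulatory T cells, gave 3 arrays, and scurfy mice with a null Il2 as well (Sf.Il2-/-, the Il2 allele from B6.129P2-Il2tm1Hor/J) gave 3. Cells bearing B220, CD8, CD11b, CD11c or NK1.1 had been depleted before CD3+ CD4+ cells were sorted. The comparison of both mutants asks which transcripts depend on interleukin-2, the T cell growth factor, in mice that lack regulatory T cells.

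Il2 itself read 5.22 in B6, 5.09 to 7.35 over the Sf arrays and 7.17 to 8.20 over the Sf.Il2-/- arrays (log2). The sources used here do not say whether its probe set covers the sequence that the null allele disrupts, so these values do not check the label. Il2ra, which encodes the alpha chain of the interleukin-2 receptor, read 3.10 to 4.29 in Sf.Il2-/- and 7.55 to 8.36 in Sf. Median intensities of the arrays ran from 29.3 to 32.4 and upper quartiles from 110.18 in Sf 2 to 144.59 in Sf 3, and how the arrays were scaled is not given in the sources used here. The summed level of 6 CD4 T cell markers (log2 of the sum) was 13.95 in B6, 13.003 to 13.47 over the Sf arrays and 13.66 to 13.84 over the Sf.Il2-/- arrays. Cd4 itself read 11.27 in B6, 9.44 to 10.71 over the Sf arrays and 10.26 to 11.07 over the Sf.Il2-/- arrays. The neutrophil transcript S100a8 read 6.37 in Sf 1 and 7.63 in Sf.Il2-/- 2 and 4.10 or less elsewhere. Summed NK cell markers, of which only Eomes passed the filter, read 7.10 in B6, 7.48 to 8.5 over the Sf arrays and 8.88 to 9.92 over the Sf.Il2-/- arrays. B cell markers summed to 11.58 in B6, 9.91 to 10.78 over the Sf arrays and 10.90 to 11.08 over the Sf.Il2-/- arrays. Most of this sum was Ighm, at 11.53 in B6, 9.69 to 10.70 over the Sf arrays and 10.81 to 11.00 over the Sf.Il2-/- arrays. Cd79a, Cd79b and Ms4a1 were dim and read lower in B6 than in every Sf array. Pax5, at 5.33 in B6 and 4.84 to 6.06 over the Sf arrays, had no such order. These B cell genes were named after their values were seen. Monocyte and macrophage markers summed to 9.61 in B6, 8.98 to 9.64 over the Sf arrays and 8.99 to 9.98 over the Sf.Il2-/- arrays. Csf1r, most of that sum, ran from 8.36 to 9.49. Of 4 tested, 3 were higher in Sf.Il2-/- than in Sf, beside 62.2% of all genes, and 1 was lower. Cd68 read 5.03 in B6, 4.73 to 5.32 over the Sf arrays and 6.20 to 6.74 over the Sf.Il2-/- arrays. Cd68 and Csf1r were named after their values were seen. The erythroid marker Hba-a1 stayed at 1.80 or less in every array. The part of other cells in the proteasome values was not tested.

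No proteasome gene passed the test in any of the 3 comparisons, in which limma was fitted over all 11460 genes with Benjamini-Hochberg adjustment at 0.05. Members called were 0 of 47 for Sf against B6, where 2.47% of all genes were called, 0 of 47 for Sf.Il2-/- against B6, where 2.69% were, and 0 of 47 for Sf.Il2-/- against Sf, where 0.279% were. At an unadjusted limma p under 0.05 there were 3 members in the first comparison (all lower in Sf) and 0 in the second. In the third there were 17, all higher in Sf.Il2-/-. Of all genes 2584, 2129 and 908 had such a p. In the third comparison 426 of the 2255 genes with a mean of at least 9 did, and 16 of the 33 members at that level. The lowest adjusted p among members was 0.113 for Psmd3 in Sf against B6, 0.317 for Psmc3ip in Sf.Il2-/- against B6 and 0.391 for Psmb5 in Sf.Il2-/- against Sf. The comparisons share arrays, so each is given with its own values and they are not independent of each other. In these bulk samples fewer cells of a type and less RNA per cell cannot be told apart.

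On the deposited scale 46 of 47 members had a higher mean in Sf.Il2-/- than in Sf, as did 62.2% of all genes tested. The median difference of the members was 0.38 (log2), beside 0.08 over all genes tested. After quantile normalization 40 of 47 members were higher, beside 55.3% of all genes, with a median of 0.13 beside 0.03. Psmg4 was the exception on the deposited scale, at -0.09. All 3 Sf.Il2-/- arrays lay above all 3 Sf arrays for 18 of 47 members, against 8.39% of all genes, and below them for 0 members, against 3.72%. After quantile normalization 13 of 47 members had every Sf.Il2-/- array above every Sf array, against 9.01% of all genes. Most members are bright, with a median percentile of 90.4 for mean level, and 33 of the 47 had a mean of at least 9, as 19.7% of all genes did. Among the 2255 genes at that level the median difference was 0.28, beside 0.45 for the 33 members there. Of those genes 87.9% were above 0, as were all 33 members. Every Sf.Il2-/- array lay above every Sf array for 22.2% of those genes and for 16 of the 33 members. After quantile normalization this held for 11.3% and for 10 of 33, and 53.6% and 27 of 33 were above 0. The 6 measured CD4 T cell markers had a median of 0.55 in this comparison, all 6 above 0 and 0 past the threshold, and their part in the values of the members was not tested.

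Against B6 the values of the family moved with the scaling, and for Sf the direction turned. On the deposited scale all Sf arrays lay below the B6 array for 22 of 47 members and above it for 3, where 46.9% and 19.6% of all genes did, and all Sf.Il2-/- arrays lay above it for 23 and below it for 8, where 24.7% and 44.5% did. The median difference of the members between Sf and B6 was -0.29 as deposited, with all genes at -0.25. In Sf 37 of 47 members were lower, as were 7478 of 11460 genes in all. After quantile normalization the members' median was 0.30, with all genes at 0.02, and 38 of 47 members were higher, beside 52.0% of all genes. Genes with a mean of at least 9 had a median of -0.53 as deposited and the 33 members at that level -0.33. At that level 1909 of 2255 genes and 31 of 33 members were lower in Sf. For Sf.Il2-/- against B6 the members had a median of 0.13 as deposited, with all genes at -0.14, and 30 of 47 were higher, beside 39.7% of all genes. After quantile normalization the members' median was 0.40, with all genes at 0.06, and 42 of 47 were higher, beside 55.0% of all genes. Quantile normalization also brought members past the threshold. Psma7 passed as higher in Sf than in B6, where 3.41% of all genes were called higher. Psma1, Psma2, Psma4, Psmb1, Psmb3, Psmb8, Psmb10 and Psmd8 passed as higher in Sf.Il2-/- than in B6, where 4.22% were. Quantile normalization thus moved the all-gene median by more than 0.1 in both comparisons with B6, and the medians of the members relative to it went from -0.05 to 0.28 and from 0.26 to 0.34.

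**Figure D1:**
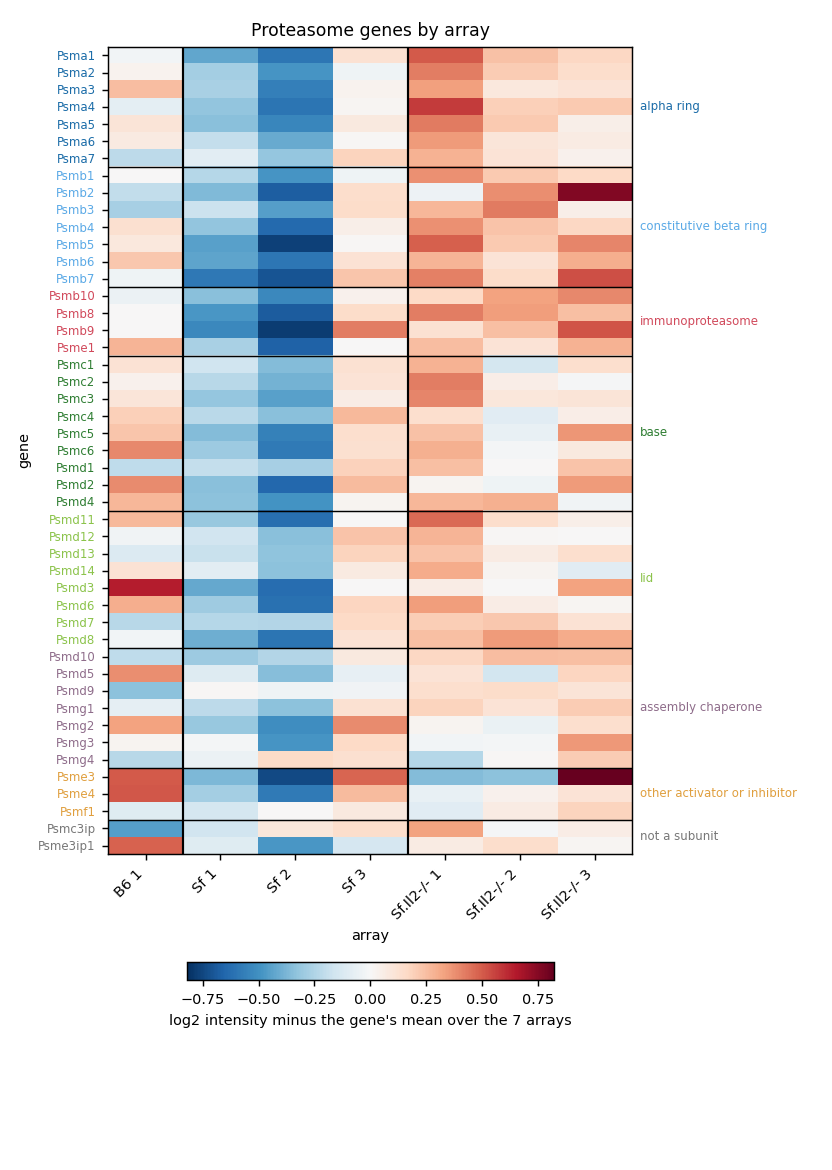
Colour map of the 47 tested genes by array, each cell the deposited log2 intensity minus the gene's mean over the 7 arrays, with genes grouped by role. Sf 2 is the lowest array for 42 of 47 genes and Sf 3 is closer to the Sf.Il2-/- arrays than to Sf 1 and Sf 2; the scale is the deposited one, on which the arrays differ in upper quartile.

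The 3 scurfy arrays were not alike. Sf 2 was the lowest of the 7 arrays for 42 of 47 members, and Sf 1 and Sf 2 were the lowest pair for 36 of 47 (76.6%), which held for 29.9% of all genes. The median level of the members was 9.95 in B6, 9.54, 9.23 and 9.91 in Sf 1, 2 and 3, then 10.03, 10.03 and 9.99 in Sf.Il2-/- 1, 2 and 3. Genes with a mean of at least 9 had medians of 10.25 in B6, 9.60, 9.39 and 10.02 over the Sf arrays and 9.95, 9.90 and 9.999 over the Sf.Il2-/- arrays. Sf 1 and Sf 2 were low for the members as for other bright genes, while Sf 3 was within the range of B6 and the Sf.Il2-/- arrays for bright genes and just below it for the members. The members' median between the mutants was 0.58 without Sf 3 and 0.26 without Sf 2, and that of Sf against B6 was -0.48 and -0.15. Without Sf 3, 16 members passed as lower in Sf than in B6, where 23.9% of all genes did, and 17 passed as higher in Sf.Il2-/- than in Sf, where 5.73% did. The 17 held Psma1 to Psma5, Psmb1, Psmb4 to Psmb10, Psmd3, Psmd8, Psmd11 and Psme1. No member passed when any other single mutant array was left out.

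Ranks of genes within the family are those of the deposited scale unless quantile normalization is named. Among the immunoproteasome genes, Psmb8, the beta subunit that replaces Psmb5, read 10.91 in B6, 10.43, 10.23 and 11.06 in Sf 1, 2 and 3, then 11.33, 11.25 and 11.15 in Sf.Il2-/- 1, 2 and 3. Every Sf.Il2-/- array lay above every Sf array and above B6, while Sf 3 lay close to B6 and Sf 1 and Sf 2 below both. Its mean was 0.67 higher in Sf.Il2-/- than in Sf (95% interval 0.19 to 1.15, limma adjusted p = 0.430), 0.34 lower in Sf than in B6 by the deposited scale (difference -0.34, adjusted p = 0.509; 0.38 after quantile normalization), and 0.34 higher in Sf.Il2-/- than in B6 (adjusted p = 0.600). Psmb9, which replaces Psmb6, read 10.56 in B6, 10.02, 9.77 and 10.97 over the Sf arrays and 10.68, 10.80 and 11.07 over the Sf.Il2-/- arrays. Sf 3 was above B6 and above 2 of the 3 Sf.Il2-/- arrays, so the groups overlap, and Sf.Il2-/- minus Sf was 0.59 (-0.05 to 1.24, adjusted p = 0.669). Psmb10, which replaces Psmb7, read 10.11 in B6, 9.81, 9.62 and 10.19 over the Sf arrays and 10.32, 10.48 and 10.55 over the Sf.Il2-/- arrays. All Sf.Il2-/- arrays were above all others, with a difference from Sf of 0.57 (0.14 to 1.01, adjusted p = 0.459). Psme1, a subunit of the interferon-inducible activator ring, read 11.63 in B6, 11.08, 10.68 and 11.35 over the Sf arrays and 11.60, 11.46 and 11.64 over the Sf.Il2-/- arrays. B6 and the Sf.Il2-/- arrays were close and all Sf arrays lower, with a difference of 0.53 between the mutants (0.13 to 0.93, adjusted p = 0.459) and of -0.59 between Sf and B6 on the deposited scale (adjusted p = 0.206; -0.04 after quantile normalization).

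The constitutive subunits that these replace differed by 0.53 to 0.77 between the mutants. Psmb5, which carries the chymotrypsin-like site, read 9.95 in B6, 9.41, 9.09 and 9.87 over the Sf arrays and 10.35, 10.07 and 10.26 over the Sf.Il2-/- arrays. B6 lay between the groups, above every Sf array and below every Sf.Il2-/- array. Its difference of 0.77 between Sf.Il2-/- and Sf (0.26 to 1.27, limma adjusted p = 0.391) was the largest of any member on the deposited scale, while after quantile normalization Psmb5 had 0.49 and Psmb2 the largest, 0.55. As deposited, Psmb5 differed from B6 by -0.49 in Sf and 0.28 in Sf.Il2-/-. Psmb6, with the caspase-like site, read 10.24 in B6, 9.58, 9.42 and 10.14 over the Sf arrays and 10.30, 10.13 and 10.31 over the Sf.Il2-/- arrays. The Sf 3 array reached the lowest Sf.Il2-/- array, and the mutants differed by 0.53 (0.05 to 1.02, adjusted p = 0.586). Psmb7, with the trypsin-like site, read 10.50 in B6, 9.95, 9.83 and 10.76 over the Sf arrays and 10.95, 10.68 and 11.07 over the Sf.Il2-/- arrays. Here too Sf 3 fell among the Sf.Il2-/- arrays, with a difference of 0.72 (0.16 to 1.28, adjusted p = 0.478). In Sf against B6 these 3 genes were lower on the deposited scale (-0.49, -0.52 and -0.32) and higher after quantile normalization (0.07, 0.08 and 0.36).

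Set side by side, immunoproteasome and constitutive genes had medians on the same side of 0 in each comparison. Between Sf.Il2-/- and Sf the 4 measured immunoproteasome genes had a median difference of 0.58 and the 31 constitutive subunits 0.44. All of them were above 0, as were 62.2% of all genes and 87.9% of those with a mean of at least 9. After quantile normalization the medians were 0.22 and 0.11. The gap of 0.14 between these medians as deposited became 0.039 without Sf.Il2-/- 3 and 0.24 without Sf.Il2-/- 1. Between Sf and B6 the medians were -0.32 and -0.29 as deposited and 0.38 and 0.29 after quantile normalization. Between Sf.Il2-/- and B6 they were 0.31 and 0.12, and 0.60 and 0.40 after quantile normalization. Probe sets differ in response, so only the change of a ratio between arrays can be read. The median of the immunoproteasome genes minus that of the constitutive subunits was 0.46 in B6, 0.53, 0.56 and 0.88 over the Sf arrays and 0.69, 0.90 and 0.88 over the Sf.Il2-/- arrays. B6 had the lowest value, also after quantile normalization (0.44, against 0.57 to 0.97 in the mutant arrays), and the mutants overlapped, at 0.66 ± 0.19 in Sf and 0.82 ± 0.12 in Sf.Il2-/- (SD, n = 3 each). This summary over members was not tested.

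The ratios of the exchanged pairs differed in their order over the arrays. Psmb8 minus Psmb5 was 0.96 in B6, 1.02, 1.13 and 1.19 over the Sf arrays and 0.98, 1.18 and 0.90 over the Sf.Il2-/- arrays (log2). Psmb9 minus Psmb6 was 0.32 in B6, 0.44, 0.35 and 0.83 over the Sf arrays and 0.38, 0.67 and 0.76 over the Sf.Il2-/- arrays. Psmb10 minus Psmb7 was -0.39 in B6, -0.14, -0.20 and -0.57 over the Sf arrays and -0.64, -0.20 and -0.52 over the Sf.Il2-/- arrays. For the first pair Sf.Il2-/- 3 fell below B6, for the second every mutant array lay above B6, and for the third B6 lay within both mutant groups.

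**Figure D2:**
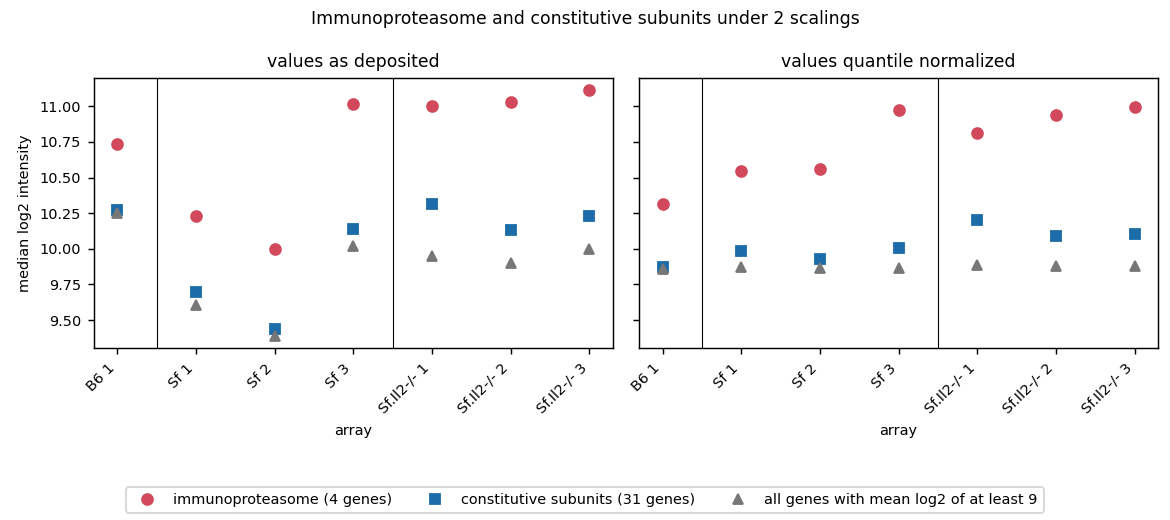
Median log2 intensity of the 4 immunoproteasome genes (circles), the 31 constitutive subunits (squares) and all genes with a mean of at least 9 (triangles) in each array, as deposited (left) and after quantile normalization (right). On the left Sf 1 and Sf 2 lie below B6 for all 3 sets, and on the right B6 has the lowest immunoproteasome and constitutive medians, so the direction of Sf against B6 depends on the scaling.

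Promoter sequences are shown for Psmb8 and Psmb5, a pair of exchanged subunits of which each holds a motif match, and for Psmb9, whose start lies beside that of the peptide transporter gene Tap1. Each line gives the 150 bases before the start site, read 5′ to 3′ on the strand of the gene from RefSeq GRCm38.p6, with motif matches on either strand in capitals.
Psmb8 (chr17:34198045-34198194, plus strand): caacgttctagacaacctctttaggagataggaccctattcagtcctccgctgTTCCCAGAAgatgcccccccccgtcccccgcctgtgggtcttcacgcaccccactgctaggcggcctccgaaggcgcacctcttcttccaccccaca
Psmb9 (chr17:34187331-34187480, minus strand): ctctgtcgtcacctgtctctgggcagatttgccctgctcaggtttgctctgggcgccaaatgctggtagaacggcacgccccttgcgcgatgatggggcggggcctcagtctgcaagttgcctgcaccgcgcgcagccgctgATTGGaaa
Psmb5 (chr14:54617996-54618145, minus strand): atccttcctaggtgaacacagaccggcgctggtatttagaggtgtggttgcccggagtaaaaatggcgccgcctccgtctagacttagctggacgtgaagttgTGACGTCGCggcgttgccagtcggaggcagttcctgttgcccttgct
Capitals mark a gamma-activated site (TTCNNNGAA, the letters bound by STAT factors) in Psmb8, from 97 to 89 bases before the start, and an antioxidant response element core (TGACNNNGC, the letters read by Nfe2l2 and Nfe2l1) in Psmb5, from 47 to 39 bases before it. In Psmb9 they mark a CCAAT box (CCAAT, the letters bound by NF-Y) on the opposite strand, from 8 to 4 bases before the start. The Psmb9 stretch holds neither of the first motifs, nor an interferon-stimulated response element core or the fixed NF-kappaB sequence that was searched. Psmb9 and Tap1 start 226 bases apart on opposite strands of chromosome 17.

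Both strands of the 250 bases before the start were searched in the 41 members and 27025 genes that the RefSeq table holds. The gamma-activated site letters stood in 2 of 41 members (4.88%) and in 8.13% of all genes. The interferon-stimulated response element core (GAAA, any 2 bases, GAAA) stood in 3 of 41 (7.32%) against 3.46%, and in 0 of the 4 immunoproteasome genes. The antioxidant response element core stood in 5 of 41 (12.2%), which were Psmb5, Psmb6, Psmc6, Psmd9 and Psmd12, against 11.5%. For NF-kappaB only a fixed sequence with no variable letters was searched, so other forms of its site were not counted. That sequence stood in 0 of 41 against 0.159%, and CCAAT in 16 of 41 (39.0%) against 37.5%. A match describes letters only, and no match says only that those letters are not in the window.

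The alpha ring genes encode the outer rings of the core. Psma4 read 10.53 in B6, 10.28, 10.01 and 10.62 over the Sf arrays and 11.18, 10.80 and 10.82 over the Sf.Il2-/- arrays. All Sf.Il2-/- arrays were above all others, and the 0.63 difference from Sf (0.18 to 1.08, limma adjusted p = 0.430) was the highest of the ring. Psma3 read 11.45 in B6, 10.93, 10.64 and 11.22 over the Sf arrays and 11.54, 11.29 and 11.31 over the Sf.Il2-/- arrays. Its Sf arrays were the 3 lowest, with differences of 0.45 between the mutants and of -0.52 from B6 in Sf (0.08 after quantile normalization). Psma7 was nearest to level between the mutants at 0.22 (-0.21 to 0.65, adjusted p = 0.878), and its arrays read 9.70 in B6, 9.60 to 10.10 over the Sf arrays and 9.96 to 10.20 over the Sf.Il2-/- arrays. For 5 of the 7 ring genes every Sf.Il2-/- array lay above every Sf array, as for 8.39% of all genes and 22.2% of those with a mean of at least 9, and after quantile normalization this held for 1 of 7, beside 9.01% of all genes.

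Of the other beta ring genes, Psmb2 read 8.73 in B6, 8.57, 8.26 and 9.08 over the Sf arrays and 8.89, 9.32 and 9.70 over the Sf.Il2-/- arrays. The groups overlap through Sf 3, and the spread was wide in both (SD 0.42 and 0.40, n = 3 each), with a difference of 0.67 (0.04 to 1.30, limma adjusted p = 0.614). Psmb3 read 9.48 in B6, 9.30 to 9.91 over the Sf arrays and 9.80 to 10.18 over the Sf.Il2-/- arrays, and its difference of 0.41 between the mutants was the lowest of the ring. Together the 14 genes of the core had a median difference of 0.53 between Sf.Il2-/- and Sf, with 12 at an unadjusted limma p under 0.05. The 17 genes of the regulatory particle had 0.35, with 2 at such a p. In all 908 of 11460 genes had such a p, and 426 of the 2255 with a mean of at least 9. After quantile normalization the medians were 0.14 and 0.11. Then 3 core and 3 regulatory genes had such a p, beside 298 of those 2255. The core median minus the regulatory median was 0.60 in B6, 0.87, 0.86 and 0.83 over the Sf arrays and 1.17, 0.94 and 0.84 over the Sf.Il2-/- arrays. B6 was the lowest array here as well, also after quantile normalization, where it read 0.58 and the mutant arrays 0.82 to 0.98.

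In Psma2, Psmb1, Psmb4 and Psmb5 B6 lay above all Sf arrays and below all Sf.Il2-/- arrays, which is 4 of 47 members (8.51%) beside 0.812% of all genes. These 4 were picked out after their values were seen. After quantile normalization 0 of 47 members had this order, and 0.812% of all genes did.

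**Figure D3:**
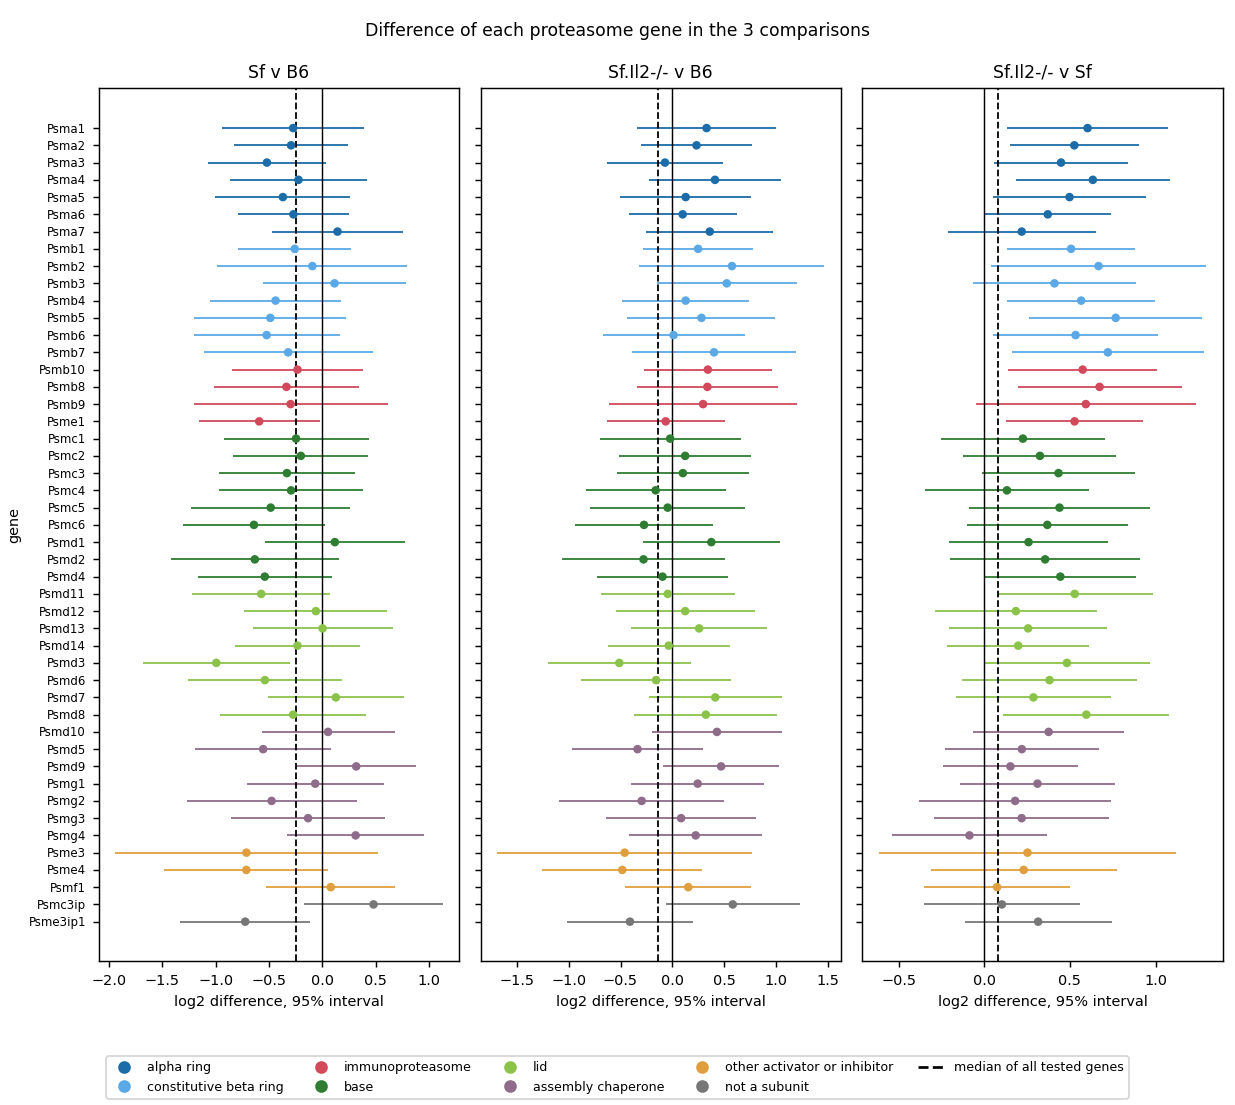
Log2 difference of each of the 47 genes with its 95% interval from limma in the 3 comparisons, on the deposited scale, coloured by role; the dashed line is the median of all 11460 genes. Between Sf.Il2-/- and Sf, 46 of 47 points lie above 0, as do 62.2% of all genes. None of the 47 genes passed the adjusted threshold in any panel. Against B6 the side of 0 turns after quantile normalization for many genes.

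The base of the regulatory particle holds the ATPases Psmc1 to Psmc6 and the scaffold and ubiquitin-binding subunits Psmd1, Psmd2 and Psmd4. Psmc6 read 10.69 in B6, 10.002, 9.72 and 10.43 over the Sf arrays and 10.59, 10.29 and 10.38 over the Sf.Il2-/- arrays. Every mutant array was below B6, and Sf differed from it by -0.64 (adjusted p = 0.236), or by 0.01 after quantile normalization. Psmd4, a ubiquitin receptor, read 10.32 in B6, 9.71, 9.55 and 10.07 over the Sf arrays and 10.31, 10.33 and 10.01 over the Sf.Il2-/- arrays. Its 0.44 between the mutants (0.00 to 0.89, limma adjusted p = 0.629) was the highest of the base, and Sf 3 lay within the Sf.Il2-/- range. Psmc4 had the lowest, 0.13 (adjusted p = 0.950), and turned to -0.10 after quantile normalization. Psmd1, a scaffold subunit, read 8.78 in B6, 8.72 to 9.18 over the Sf arrays and 9.0 to 9.24 over the Sf.Il2-/- arrays, and Psmd2, its fellow scaffold, 10.27 in B6, 9.23 to 10.14 over the Sf arrays and 9.84 to 10.23 over the Sf.Il2-/- arrays. So the first sat at or above B6 in most mutant arrays and the second below B6 in every one, as deposited.

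In the lid, Psmd3 had the lowest difference from B6 of any member in both mutants, as deposited. It read 10.23 in B6, 9.16, 8.96 and 9.59 over the Sf arrays and 9.65, 9.59 and 9.92 over the Sf.Il2-/- arrays. All 6 mutant arrays were below B6, by -0.99 in Sf (-1.68 to -0.31, limma adjusted p = 0.113) and by -0.51 in Sf.Il2-/- (adjusted p = 0.414). It stayed lower after quantile normalization, at -0.44 in Sf and -0.16 in Sf.Il2-/-. Psmd8 read 9.73 in B6, 9.35, 9.14 and 9.86 over the Sf arrays and 9.99, 10.09 and 10.05 over the Sf.Il2-/- arrays. The Sf.Il2-/- arrays were the 3 highest and close to each other, with a difference of 0.60 from Sf (0.11 to 1.08, adjusted p = 0.507), the highest of the lid. Psmd7 read 8.44 in B6, 8.44, 8.43 and 8.83 over the Sf arrays and 8.87, 8.90 and 8.79 over the Sf.Il2-/- arrays, and was 0.41 higher in Sf.Il2-/- than in B6 (adjusted p = 0.478). Psmd12 had the smallest difference between the mutants in the lid, 0.18 (adjusted p = 0.918), which turned to -0.05 after quantile normalization.

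The other activators Psme3 and Psme4 had negative differences from B6 in both mutants, as deposited and after quantile normalization, without passing. Psme4, which forms a large monomeric activator, read 9.16 in B6, 8.36, 8.06 and 8.90 over the Sf arrays and 8.58, 8.68 and 8.75 over the Sf.Il2-/- arrays. All 6 mutant arrays were below B6, by -0.71 in Sf (limma adjusted p = 0.250) and -0.48 in Sf.Il2-/- (adjusted p = 0.488). Psme3, the nuclear relative of Psme1, read 8.37 in B6, 7.50, 7.13 and 8.35 over the Sf arrays and 7.51, 7.54 and 8.69 over the Sf.Il2-/- arrays. The third array of each mutant stood near B6 and the others well below it, with SD of 0.63 and 0.68 (n = 3 each). Psmf1, which inhibits the proteasome in the test tube, was nearly level, at 7.63 in B6, 7.58 to 7.80 over the Sf arrays and 7.63 to 7.91 over the Sf.Il2-/- arrays.

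Assembly chaperones, which help build the particles and leave them, had a median difference between the mutants of 0.22 over 7 genes (0.14 after quantile normalization). Psmd10 (gankyrin) read 7.70 in B6, 7.61, 7.67 and 7.99 over the Sf arrays and 8.08, 8.16 and 8.16 over the Sf.Il2-/- arrays, and its 0.38 was the highest of the class (adjusted p = 0.722). Every Sf.Il2-/- array was above every other array. Psmd9 read 7.01 in B6, 7.31 to 7.36 over the Sf arrays and 7.45 to 7.50 over the Sf.Il2-/- arrays. It had the least spread of any member, with SD of 0.02 in both mutants (n = 3 each), and the groups did not overlap, yet differences of 0.32 and 0.47 from B6 did not pass (limma adjusted p = 0.452 and 0.352). Psmd5 read 9.15 in B6 and was lower in all mutant arrays, at 8.41 to 8.70 in Sf and 8.61 to 8.94 in Sf.Il2-/-. Psmg4 read 7.63 in B6, 7.82 to 8.02 over the Sf arrays and 7.63 to 8.07 over the Sf.Il2-/- arrays. Its -0.09 between the mutants lay within their spread.

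The genes that match by name alone behaved unlike each other. Psmc3ip, the dimmest tested, read 5.67 in B6, 5.97, 6.22 and 6.27 over the Sf arrays and 6.46, 6.11 and 6.19 over the Sf.Il2-/- arrays, all mutant arrays above B6. Psme3ip1 read 9.83 in B6, 9.25, 8.87 and 9.21 over the Sf arrays and 9.41, 9.49 and 9.36 over the Sf.Il2-/- arrays, all below B6, with -0.72 in Sf (limma adjusted p = 0.163).

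Arrays of the mutants carry the replicate numbers 1 to 3, which allows a difference for each number. The member median of Sf.Il2-/- minus Sf was 0.49, 0.61 and 0.09 for numbers 1, 2 and 3, with 45, 45 and 32 of 47 members above 0, beside 58.8%, 66.6% and 49.6% of all genes. Genes with a mean of at least 9 had medians of 0.33, 0.50 and 0.02. The immunoproteasome genes had 0.58, 0.94 and 0.19, and all 4 were above 0 in each. The constitutive subunits had 0.60, 0.65 and 0.05, with 31, 31 and 19 of 31 above 0. For number 3 the lowest class median was that of the lid, at -0.05, and the highest that of the constitutive beta ring, at 0.20. After quantile normalization the member medians were 0.17, 0.14 and 0.09, with 42, 34 and 31 of 47 above 0, and the classes took another order in number 3. The alpha ring was then the lowest, at -0.02, and the assembly chaperones the highest, at 0.22.

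**Figure D4:**
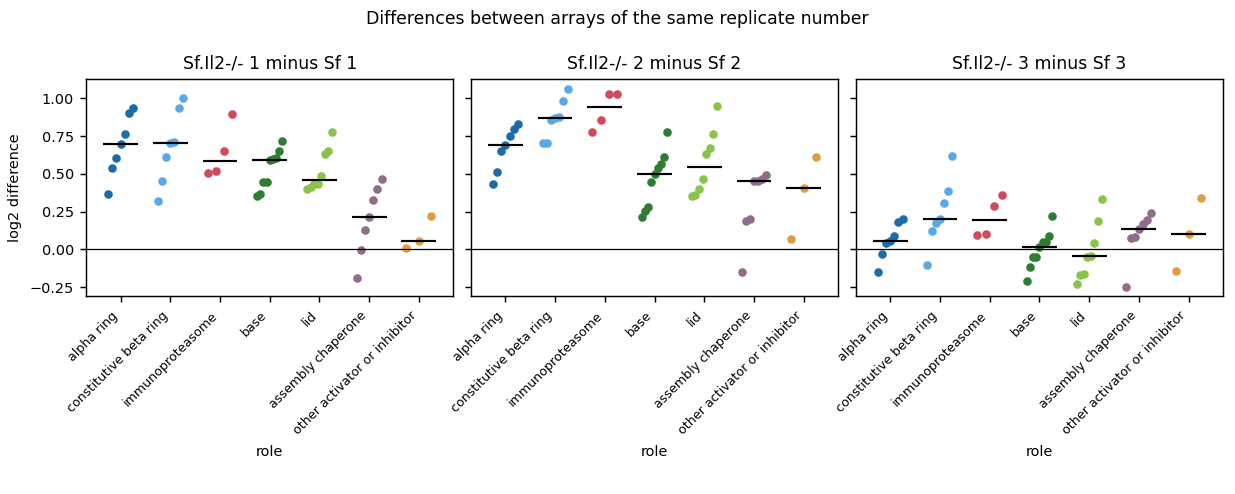
Log2 difference between the Sf.Il2-/- and the Sf array of the same replicate number for each gene (points) by role, with the class median as a bar, on the deposited scale. In numbers 1 and 2 all genes of the core, immunoproteasome, base and lid lie above 0, and in number 3 the class medians run from -0.05 to 0.20.

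Members with several probe sets allow a second look at the same transcript. For 23 members, 42 further probe sets had a group mean of at least 5, and they had the sign of the chosen one in 28, 22 and 29 of 42 for Sf against B6, Sf.Il2-/- against B6 and Sf.Il2-/- against Sf. The other probe set of Psmb8 was dim, at 5.73 in B6, 5.78 to 6.5 over the Sf arrays and 6.02 to 6.83 over the Sf.Il2-/- arrays, and differed by 0.49 between Sf and B6, opposite in sign to the bright one. That of Psmd6, at 9.55 in B6, had differences of -0.27 and 0.30 where the chosen one had -0.54 and 0.38 (Sf against B6 and Sf.Il2-/- against Sf). The Psmb8 and Psmd6 probe sets were chosen after their values were seen.

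Genes that work with the proteasome had no calls either when all arrays were used, and some without Sf 3. Of 18 partners (receptors, deubiquitinases, the maturation factor Pomp) 15 were tested and 0 passed in any comparison, with medians of -0.37 for Sf against B6, -0.26 for Sf.Il2-/- against B6 and 0.24 between the mutants. Pomp, which completes core assembly, read 10.37 in B6, 9.81 to 10.54 over the Sf arrays and 10.65 to 10.78 over the Sf.Il2-/- arrays, with 0.60 between the mutants (limma adjusted p = 0.476). Ubqln2, a shuttle for ubiquitinated proteins, was at -0.83 in Sf (adjusted p = 0.112) and -0.64 in Sf.Il2-/- (adjusted p = 0.227) against B6. Of 4 regulators of proteasome genes 3 were tested and 0 passed. Nfe2l2, a regulator of stress genes that can act on proteasome genes, had the lowest p there, at 9.23 in B6, 7.76 to 8.32 over the Sf arrays and 8.14 to 8.31 over the Sf.Il2-/- arrays (-1.12, adjusted p = 0.089, and -0.98, adjusted p = 0.144). Among ubiquitin and p97 genes 4 of 9 were tested and 0 passed. Vcp, the p97 segregase, was at -0.86 in Sf against B6 (adjusted p = 0.173) and 0.60 between the mutants (adjusted p = 0.563), and its cofactor Nsfl1c at -0.30 in Sf.Il2-/- against B6 (0.01 after quantile normalization). Without Sf 3, 5 of 15 partners (Ubqln2 among them, adjusted p = 0.016), 2 of 3 regulators (Nfe2l2, 0.011) and 2 of 4 ubiquitin and p97 genes (Vcp, 0.0073) passed as lower in Sf than in B6, where 23.9% of all genes did. Nfe2l2 then also passed as lower in Sf.Il2-/- than in B6 (0.031), where 8.55% of all genes did. Between the mutants 3 of 15 partners (Pomp, 0.018) and 1 of 4 ubiquitin and p97 genes (Vcp, 0.023) passed as higher in Sf.Il2-/- without Sf 3, where 5.73% did. With quantile normalization 1 of 15 partners, Pomp, passed as higher in Sf.Il2-/- than in B6, where 4.22% of all genes did.

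Downstream, 14 of 15 class I antigen processing genes were tested and 0 passed, with medians of -0.39, -0.02 and 0.30 in the same order of comparisons. All 14 were above 0 between the mutants, as were 62.2% of all genes and 87.9% of those with a mean of at least 9. The lowest p of each comparison belonged to Tpp2, a peptidase (-0.97 in Sf against B6, limma adjusted p = 0.139), Blmh, an aminopeptidase (0.88 in Sf.Il2-/- against B6, adjusted p = 0.204), and Pdia3, a chaperone of class I loading (0.66 between the mutants, adjusted p = 0.375). Without Sf 3, 8 of the 14 passed as lower in Sf than in B6 (Tpp2 at -1.17, adjusted p = 0.011), and 6 of 14 as higher in Sf.Il2-/- than in Sf (Pdia3 at 0.83, adjusted p = 0.023), beside 23.9% and 5.73% of all genes. With quantile normalization 2 of 14 passed as higher in Sf.Il2-/- than in B6 (Blmh at 1.11, adjusted p = 0.033), beside 4.22%.

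Of 14 tested genes of the interferon-gamma pathway, which induces the immunoproteasome, 1 passed as higher and 1 as lower in Sf than in B6, where 2.47% of all genes passed, and 1 as higher in Sf.Il2-/- than in B6, where 2.69% did. Cxcl10, an interferon-induced chemokine, read 5.63 in B6, 8.56 to 9.86 over the Sf arrays and 8.81 to 8.97 over the Sf.Il2-/- arrays, and rose by 3.57 in Sf and 3.28 in Sf.Il2-/- (limma adjusted p = 0.006 and 0.008). Jak1, a kinase of this pathway, fell by 1.27 in Sf against B6 (limma adjusted p = 0.031). Ifng itself read 6.18 in B6, 8.16 to 9.02 over the Sf arrays and 7.84 to 9.58 over the Sf.Il2-/- arrays. It did not pass against B6 in either mutant (limma adjusted p = 0.061 and 0.051). In both comparisons it passed with quantile normalization, without Sf 3, without Sf.Il2-/- 1 and without both Sf 1 and Sf.Il2-/- 2. It did so too with B6 1, Sf 3 and Sf.Il2-/- 3 as a block against the rest. In Sf.Il2-/- against B6 it also passed with a filter at 6, without Sf 1 and without Sf 2. Of the 14 genes 0 passed between the mutants, and the medians were 0.00, 0.31 and 0.18 in the order used above. Of 11 tested cell division genes, with medians of 1.31, 1.22 and 0.18, Rrm2 rose in Sf (1.81, adjusted p = 0.049), and Rrm2, Cdk1, Ccna2 and Birc5 rose in Sf.Il2-/- (1.63 to 2.23), while 0 passed between the mutants. Most of these calls depended on the setting. Over 15 alternatives Cxcl10 passed in all of them in both comparisons. Jak1 did not pass in 8 (adjusted p from 0.052 to 0.107) and Rrm2 in Sf not in 9 (0.053 to 0.094). Both were lost with no filter, with no trend, with the mean of probe sets, without Sf 1 and without any 1 of the Sf.Il2-/- arrays. In Sf.Il2-/- against B6, Rrm2 did not pass in 6 alternatives, Birc5 and Ccna2 in 7 each and Cdk1 in 8 (0.051 to 0.132). All 4 were lost with no filter, with no trend and without any 1 of the Sf.Il2-/- arrays, and Birc5, Ccna2 and Cdk1 also without Sf 1 and with a pseudocount of 16. Without Sf 3 the calls grew instead, as they did over all genes. In the interferon-gamma list 2 of 14 were higher in Sf than in B6, where 6.07% of all genes were, and 2 lower, where 23.9% were. In Sf.Il2-/- against B6, 4 were higher, beside 4.58% of all genes, and 1 lower, beside 8.55%. Between the mutants 5 of 14 were higher in Sf.Il2-/-, beside 5.73% of all genes. In the cell division list 6 of 11 were then higher in Sf and 8 of 11 in Sf.Il2-/- than in B6, where 6.07% and 4.58% of all genes were. With quantile normalization 8 of 11 and 7 of 11 were higher, where 3.41% and 4.22% of all genes were. Without Sf 2, 5 of 11 were higher in each, where 2.42% and 2.82% of all genes passed in either direction. With B6 1, Sf 3 and Sf.Il2-/- 3 as a block, 4 and 5 were, where 5.28% and 6.29% passed in either direction.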

How the data were processed

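RNA of 7 samples was hybridised to Affymetrix mouse arrays, and the authors deposited 1 intensity per probe set on a linear scale for 45037 probe sets. GCRMA and GCOS are named per the submitters' processing notes, with no version, order or parameters. Of the probe sets 34945 name 1 gene, 932 several and 9160 none by the platform annotation, and 34741 symbols were updated by Entrez number. Values were taken as log2(intensity + 1), per gene from the probe set brightest over all arrays. Group means of 11460 genes with a highest group mean of at least 5 were fitted over all 7 arrays with limma 3.58.1 (lmFit, eBayes with a trend) in R 4.3.3 and adjusted by Benjamini-Hochberg at 0.05. The B6 array is assumed to vary like the mutant arrays, which the labels call biological replicates. Intervals are 95% intervals of that fit. The number of arrays limits the precision. Differences understate the change of dim genes, since 1 was added before the log.

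The text names Psmb5 to Psmb10 and Psme1 always, in each role class the member with the highest and lowest difference in each comparison, members past the threshold, of each other list the members past it or the one with the lowest p, and Foxp3, Il2 and Il2ra; Cd4, S100a8, Hba-a1, Eomes and Ifng were named after their values were seen, and other such names are said to be so. Foxp3 read 7.25 in B6, 5.87 to 6.32 in Sf and 4.20 to 4.41 in Sf.Il2-/-. The members and lists were chosen with earlier results of these data known. List genes without a probe set of their own were not analysed here. Whether replicate numbers pair the mutant arrays was checked by correlating deviations from the group means, which gave 0.301, 0.211 and 0.505 for numbers 1, 2 and 3. Across numbers, Sf 1 gave 0.111 with Sf.Il2-/- 2 and Sf 2 gave 0.333 with Sf.Il2-/- 1. With Sf.Il2-/- 3, Sf 1 and Sf 2 gave -0.361 and -0.477, and Sf 3 gave -0.376 and -0.199 with Sf.Il2-/- 1 and 2. Numbers 1 and 2 were thus not told apart as pairs, while number 3 stood apart from both. The deviations of the arrays cancel out within each group, so these values are tied to each other. The negative ones are not separate evidence. The labels give the numbers and no pairing. The fit was run on simulated data with independent noise and planted changes of 2 and 3 (log2), larger than those of the members. It therefore does not gauge the fit for changes as small as theirs. Alternatives were the filter, quantile normalization, median centring, a pseudocount of 16, no trend, the mean of probe sets, each replicate left out, the mutant arrays alone and the replicate block. Leaving out both arrays with neutrophil transcripts, and array set as a block (B6 1, Sf 3 and Sf.Il2-/- 3 against the rest, told apart by their values), were added after seeing the data. The plots come from matplotlib 3.10.9 under Python 3.11.15.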

Additional observations from a re-analysis of the deposited data

How the results depend on the processing

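Values against B6 rest on 1 array and on the scaling, and the cause of each change below was not tested. With quantile normalization the members past the threshold became 1 for Sf against B6 and 8 for Sf.Il2-/- against B6. The members' median became 0.30 for Sf against B6 (0.28 relative to all genes), 0.40 for Sf.Il2-/- against B6 and 0.13 for Sf.Il2-/- against Sf. For Sf against B6 the median relative to all genes, -0.048, was 0.050 with a filter at 6, -0.205 with no filter and -0.174 with a pseudocount of 16. The immunoproteasome minus the constitutive median in Sf against B6 turned from -0.02 to 0.081 with quantile normalization, 0.0014 with the mean of probe sets, 0.034 without the arrays with neutrophil transcripts and 0.114 with array set as a block. The members' median for Sf.Il2-/- against B6 moved to 0.037 with the mean of probe sets, 0.153 without the arrays with neutrophil transcripts and 0.267 with array set as a block. Apart from the settings that leave out single replicates, given below, the other summary values of the 3 comparisons kept their direction and their side of the threshold.

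With quantile normalization single genes turned to 0.080 (Psma3), 0.391 (Psmb10), 0.072 (Psmb5), 0.079 (Psmb6), 0.356 (Psmb7), 0.378 (Psmb8), 0.375 (Psmb9) and 0.011 (Psmc6) in Sf against B6. In Sf.Il2-/- against B6 they turned to 0.015 (Nsfl1c), 0.155 (Psma3), 0.055 (Psmd2) and 0.153 (Psme1), and between the mutants to -0.098 (Psma7), -0.096 (Psmc4) and -0.049 (Psmd12). With array set as a block Psmb7 (0.053) and Psmb9 (0.169) turned in Sf, and Psma3 (0.0407), Psmd2 (0.090) and Psme1 (0.125) in Sf.Il2-/-, against B6. With the mean of probe sets Psmb8 (0.079), Psmd7 (-0.109), Psmd9 (-0.237) and Psmf1 (-0.274) turned in Sf against B6, Psmd7 (-0.032), Psmd9 (-0.073) and Psmf1 (-0.206) in Sf.Il2-/- against B6, and Nfe2l2 (-0.043) between the mutants. Median centring put Psmg4 at 0.0011 between the mutants.

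When each replicate was left out in turn, 0 to 16 members passed for Sf against B6 and 0 to 17 between the mutants, the highest counts without Sf 3. In Sf against B6 the members' median ran from -0.480 (without Sf 3) to -0.145 (without Sf 2), the relative median from -0.150 to 0.039 and the immunoproteasome minus constitutive median from -0.139 to 0.034. In Sf.Il2-/- against B6 the members' median ran from 0.068 (without Sf.Il2-/- 1) to 0.169 and the immunoproteasome minus constitutive median from 0.067 (without Sf.Il2-/- 3) to 0.307 (without Sf.Il2-/- 1). Between the mutants the members' median ran from 0.263 (without Sf 2) to 0.579 (without Sf 3) and the immunoproteasome minus constitutive median, 0.145, from 0.039 (without Sf.Il2-/- 3) to 0.239 (without Sf.Il2-/- 1). In Sf against B6 Psmb3 ran from -0.043 to 0.259, Psmd1 from -0.026 to 0.207 and Psmd7 from -0.0082 to 0.193. Psmb6 ran from -0.024 to 0.069 in Sf.Il2-/- against B6. Between the mutants Nfe2l2 ran from -0.031 to 0.251, Psmc3ip from -0.0010 to 0.172, Psme3 from -0.138 to 0.596 and Psmg4 from -0.195 to 0.027.

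With the replicate block, run between the mutants only because B6 shares just 1 number with them, 0 members passed and their median stayed at 0.38, while calls over all genes went from 32 to 60. No call of a named gene changed with the block. Sf 2 correlated better with Sf.Il2-/- 1 (0.333) than with its own number (0.211). Over all genes the calls of Sf against B6 ran from 116 to 3523, of Sf.Il2-/- against B6 from 129 to 1541 and between the mutants from 8 to 872 over the alternatives.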
